A study of Homo sapiens with 18 samples.

Results

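The response described here is that of H295R cells over-expressing the glucocorticoid receptor to the synthetic glucocorticoid dexamethasone. H295R, an established steroid-producing cell line, came from a carcinoma of the human adrenal cortex. The arrays were chosen by their titles: 3 of the GRα line given dexamethasone and 3 of the GRα line given ethanol vehicle, 6 of the 17 arrays that hold values out of 18 described. Every probe set with a single gene symbol entered, which gave 18417 genes, the same number as for the whole series.

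Both lines keep a pcDNA4 vector stably, without induction, in medium with Zeocin. In the GRα line the vector encodes the receptor isoform that binds hormone, and in the control line it is empty. Serum was withdrawn for 24 h at 70% confluence, and dexamethasone (100 nM) or vehicle was given for the following 6 h. The arrays used for comparison are 3 control vehicle, 3 control dexamethasone and 2 GRα arrays with RU486 (mifepristone, a receptor antagonist or partial agonist) at 100 nM for 6 h. Each line is 1 stable line, so the added receptor and any other trait of that line cannot be told apart. The labels speak of biological replicates but name no separate cultures. The p-values therefore measure only how these samples spread, which may be technical.

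The glucocorticoid receptor waits in the cytoplasm in a complex with heat shock proteins, moves into the nucleus when it binds hormone, and raises transcription from palindromic DNA elements or lowers it, often through contacts with other transcription factors. Early targets in many tissues include the transcription factor gene ZBTB16, the clock gene PER1, the leucine zipper gene TSC22D3 and inhibitors of inflammatory signalling. The adrenal cortex is the source of the natural hormone and also carries the receptor.

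Values are log2 array values, and a difference of 1 means a factor of 2 in signal. Whether a low value stands above the array's background was not tested, and the small number of arrays limits the precision. GRα vehicle replicate B stood apart, with an array weight of 0.194 where the other arrays had 0.654 to 2.3. Its values on 57 replication-dependent histone genes exceeded those of vehicle A and C by a median of 0.586, and the histone list had a median change of −0.26 with dexamethasone, or −0.06 without that array. Limma called none of the histone genes, where it called 2.02% of all genes. Of the 57 histone genes 22 had an unadjusted p under 0.05, against 2822 of all 18417 genes. The median standard deviation over genes was 0.119 among the GRα vehicle arrays and 0.086 among the GRα dexamethasone arrays. The 12 measured adrenocortical markers had vehicle means of 5.48 to 10.25 with a median of 8.3, against a median of 6.85 over all genes. CYP11A1 read 10.16, 10.43 and 10.15 and STAR 9.28, 9.56 and 9.40 on vehicle arrays A, B and C. MC2R, the corticotropin receptor gene, read 5.56, 5.28 and 5.61.

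Among called genes, dexamethasone raised more than it lowered, and it raised them further. The test called 372 of 18417 genes (2.02%) at an adjusted p under 0.05, 250 of them rises (1.36% of genes) and 122 falls (0.662%). The median rise was 0.44 and the median fall −0.36, against −0.01 over all genes. Of the rises, 154 were under 0.5, 83 between 0.5 and 1 and 13 larger than 1, while 110 falls were under 0.5, 12 between 0.5 and 1 and 0 larger in limma's fit. An unadjusted p under 0.05 was reached by 2822 genes.

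The dexamethasone arrays lay wholly above the vehicle arrays for 249 of the 250 rises and wholly below them for all 122 falls. Over all genes such separation occurred in 6.67% of genes upward and in 9.13% downward, so separation alone was much more common than a call. The counts depended on single arrays. Without dexamethasone B 145 rises and 55 falls were called, and without vehicle C 377 and 224. The falls numbered 79 without dexamethasone A, 71 without dexamethasone C and 76 without vehicle A. In a fit of the 6 arrays alone 74 rises and 3 falls were called. Vehicle B was the lowest vehicle array for 167 of the 250 rises and the highest for 70 of the 122 falls, against 7454 and 7076 of all 18417 genes. Without it 176 of the rises and 62 of the falls were called. Its part in the calls beyond these counts was not tested.

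**Figure D1:**
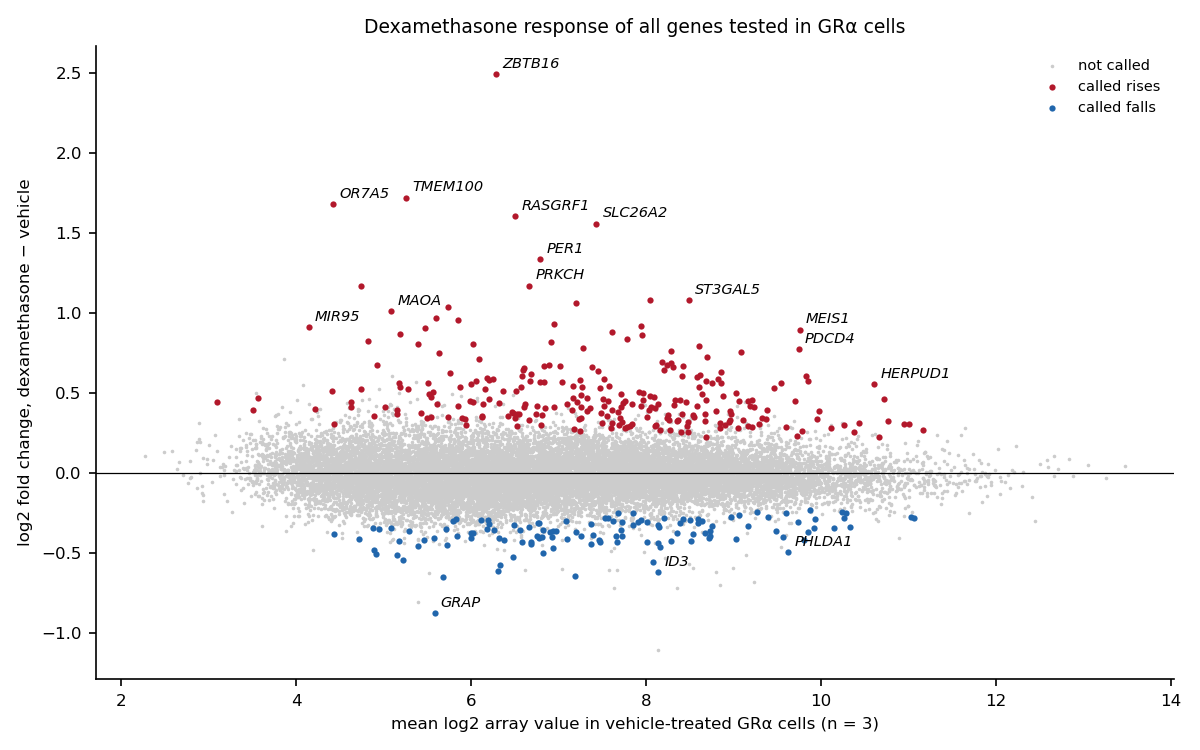
Log2 fold change of dexamethasone against vehicle in GRα cells (vertical axis) against the mean log2 array value in vehicle (horizontal axis, n = 3 arrays) for 18417 genes. The 250 called rises (red) reach 2.49 and the 122 called falls (blue) reach −0.88, while grey points were not called.

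The gene for the receptor was not called. NR3C1, the receptor gene that the vector over-expresses, read 7.98, 7.90 and 7.95 on vehicle arrays A, B and C and 8.001, 8.04 and 8.11 on dexamethasone arrays. The groups did not overlap, but the difference of 0.11 ± 0.07 (SE) was not called (adjusted p = 0.457). Of 24 measured genes for receptors, chaperones and coregulators, 1 rose and none fell by limma, where 1.36% and 0.662% of all genes did, with a list median of 0.03. The riser was NRIP1, a nuclear receptor corepressor gene (0.30 ± 0.07), which lost its call without any of dexamethasone A, B or C or vehicle A or B (adjusted p 0.0571 to 0.136).

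Among known glucocorticoid targets the response was strong in a few genes and not called in most. Of 44 measured genes on a list of targets induced in other tissues, 9 rose, where 1.36% of all genes did, and none fell by limma. The list median was −0.01, as it was for all genes. Those that rose were ZBTB16, PER1, NNMT, MAOA, ERRFI1, TSC22D3, BCL6, DDIT4 and NFKBIA. The list was drawn up with earlier results of these data known, so its count is a description.

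ZBTB16, a zinc finger transcription factor, gave the largest response. It read 6.33, 6.24 and 6.29 on vehicle arrays A, B and C and 8.87, 8.75 and 8.72 with dexamethasone, with no overlap and little spread in either group. The rise was 5.63-fold (log2 2.49 ± 0.09 SE, adjusted p = 1.17e-11). PER1, a repressor within the circadian clock, read 6.89, 6.73 and 6.75 in vehicle and 8.14, 8.20 and 8.04 with dexamethasone, a 2.53-fold rise (1.34 ± 0.07, adjusted p = 2.81e-09). TSC22D3, also called GILZ, an inhibitor of inflammatory transcription factors, read 7.12, 7.72 and 7.30 in vehicle and 8.09, 8.12 and 7.91 with dexamethasone. Vehicle B was its highest vehicle array, and the rise was 0.66 ± 0.11 with all arrays and 0.83 without that array. It was not called when the 6 arrays were fitted alone (adjusted p = 0.129).

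BCL6, a transcriptional repressor, rose from 7.35, 7.65 and 7.54 to 8.17, 8.12 and 8.001 (0.58 ± 0.08). DDIT4, an inhibitor of mTOR complex 1, rose from 5.78, 6.33 and 5.89 to 6.51, 6.59 and 6.56 (0.56 ± 0.12). Its call was kept only without vehicle B, and leaving out any of the other 5 arrays gave adjusted p-values of 0.0556 to 0.0911. Several genes widely used as readouts of the hormone were not called: DUSP1, a MAP kinase phosphatase (0.04 ± 0.07), SGK1, a kinase that regulates sodium transport (0.14 ± 0.07), and KLF9, a transcription factor (−0.14 ± 0.07). Their vehicle and dexamethasone arrays overlapped, and DUSP1 read 7.72, 7.92 and 7.62 in vehicle and 7.79, 7.88 and 7.73 with dexamethasone.

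The TSC22 domain family holds TSC22D3 and its relatives, and these were looked at after the values had been seen. TSC22D1 rose from 8.61, 8.43 and 8.70 to 9.17, 9.25 and 9.12 (0.60 ± 0.07, adjusted p = 9.17e-05), with no overlap. TSC22D4 (0.28 ± 0.09) and TSC22D2 (0.14 ± 0.07) were not called.

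The 25 largest rises were called without any single one of the 6 arrays, and 24 of them when only those arrays were fitted. The exception was the microRNA gene MIR95 (adjusted p = 0.0809). The 25 were chosen among called genes whose dexamethasone arrays all lay above the vehicle arrays. Both RU486 arrays of GRα cells lay below all 3 dexamethasone arrays for each of the 25. The same dexamethasone values chose the genes, so that count is a description. The 25 are described below by the roles of their products.

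Several of the 25 encode regulators of transcription and chromatin. MEIS1, a homeodomain partner of PBX and HOX proteins, read 9.65, 9.78 and 9.84 in vehicle and 10.66, 10.68 and 10.61 with dexamethasone (1.86-fold, log2 0.90 ± 0.06, adjusted p = 1.34e-07). The dexamethasone arrays lay within 0.1 of each other, far above the vehicle arrays. STOX1, which encodes a winged-helix protein, rose by 0.90 ± 0.09, and TSPYL2, a relative of nucleosome assembly proteins, by 0.86 ± 0.06. Outside the 25, and named for a difference between the lines given further on, were CSRNP1 and JADE1. CSRNP1, a nuclear protein gene, rose from 6.08, 5.89 and 6.09 to 6.71, 6.93 and 6.83 (0.80 ± 0.07). JADE1, a scaffold of a histone acetyltransferase complex, rose from 8.66, 8.50 and 8.66 to 9.40, 9.43 and 9.37 (0.79 ± 0.06).

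Genes of intracellular signalling formed another group. RASGRF1, which activates Ras by nucleotide exchange, read 6.61, 6.27 and 6.63 in vehicle and 8.07, 8.33 and 7.93 with dexamethasone (3.04-fold, log2 1.60 ± 0.10, adjusted p = 4.57e-08). PRKCH, which encodes protein kinase C eta, read 6.79, 6.46 and 6.73 in vehicle and 7.85, 7.93 and 7.72 with dexamethasone (2.25-fold, 1.17 ± 0.10). In both genes vehicle B was the lowest array. EPHA4, an ephrin receptor gene, rose by 0.87 ± 0.11.

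Membrane transport, lipid and small-molecule metabolism supplied some of the largest changes. SLC26A2, a sulfate transporter that feeds proteoglycan and steroid sulfation, read 7.42, 7.42 and 7.45 in vehicle and 8.99, 9.02 and 8.96 with dexamethasone (2.95-fold, log2 1.56 ± 0.07, adjusted p = 3.83e-10). Within each group its arrays differed by less than 0.1. ST3GAL5, the GM3 ganglioside synthase, rose from 8.38, 8.44 and 8.66 to 9.62, 9.63 and 9.47 (2.12-fold, 1.08 ± 0.09). NNMT, which methylates nicotinamide, rose from 5.88, 5.54 and 5.77 to 6.79, 6.68 and 6.84 (1.04 ± 0.09). MAOA, the mitochondrial monoamine oxidase A, rose from 5.29, 5.03 and 4.94 to 5.97, 6.19 and 6.14 (2.02-fold, 1.01 ± 0.08). All were separated from vehicle on every array.

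Cytoskeletal and surface proteins were also among the largest rises. VCL, which encodes vinculin, the link between integrin adhesions and actin, read 8.12, 7.80 and 8.22 in vehicle and 9.13, 9.19 and 9.06 with dexamethasone (2.11-fold, log2 1.08 ± 0.08). FRY rose by 1.06 ± 0.11, ABLIM1, an actin-binding LIM protein gene, by 0.84 ± 0.13, and CNST, a trafficking factor of connexins, by 0.93 ± 0.07. The hyaluronan receptor gene LYVE1 rose from 4.79, 4.96 and 4.71 to 5.77, 5.51 and 5.66 (0.83 ± 0.10). LYVE1 also marks lymphatic endothelium. Of 10 endothelial markers on a separate list none was called by limma, where 2.02% of all genes were. Their summed log2 values were 51.2 to 52 over the vehicle arrays and 50.7 to 52.2 over the dexamethasone arrays.

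TMEM100, a small membrane protein known downstream of BMP receptors in endothelium, read 5.15, 5.25 and 5.36 in vehicle and 6.88, 7.20 and 6.86 with dexamethasone (3.3-fold, log2 1.72 ± 0.13, adjusted p = 3.85e-07). Members of the OR7 family of olfactory receptors went both ways. OR7A5 read 4.35, 4.43 and 4.48 in vehicle and 6.17, 6.10 and 6.04 with dexamethasone (1.68 ± 0.08), and OR7C1 rose from 4.87, 4.36 and 5.00 to 5.99, 5.96 and 5.78 (1.17 ± 0.14). OR7D4 fell from 5.57, 5.89 and 5.59 to 5.16, 5.21 and 4.70 (−0.65 ± 0.14), a call lost without dexamethasone C or vehicle B (adjusted p 0.0904 and 0.103). The other 8 of 11 measured members were not called, where 1.36% of all genes rose and 0.662% fell. Whether these probe sets tell the related genes apart was not tested.

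**Figure D2:**
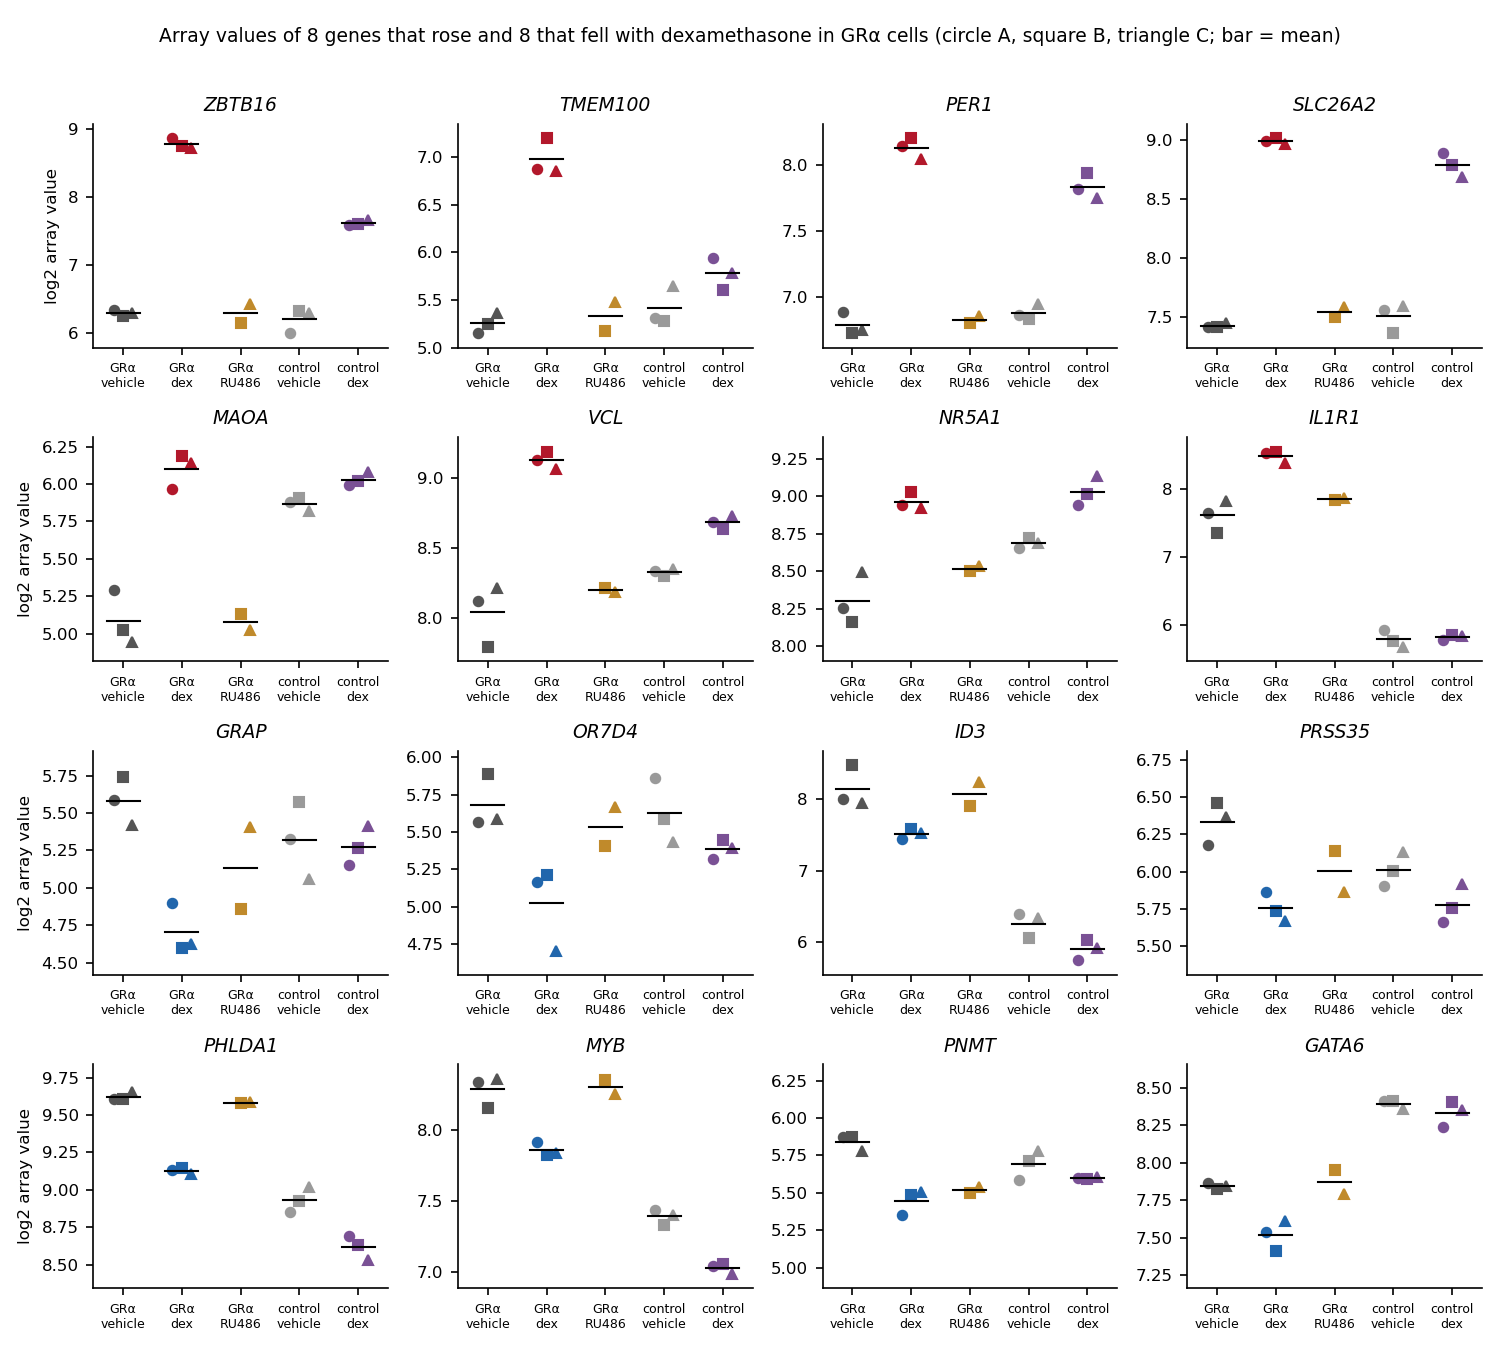
Log2 array values of 16 called genes by group; circles, squares and triangles are replicates A, B and C and bars are group means. For the upper 8 genes the GRα dexamethasone arrays (red) lie above all GRα vehicle arrays (dark grey), for the lower 8 (blue) below them, and GRα RU486 has 2 arrays.

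The falls were shallower and less settled. GRAP, an adaptor protein related to GRB2, had the largest called fall, from 5.59, 5.74 and 5.42 to 4.90, 4.60 and 4.62 (1.83-fold lower, log2 −0.88 ± 0.14, adjusted p = 0.00202). PHLDA1, a pleckstrin homology domain protein gene induced by growth factor signalling, read 9.61, 9.60 and 9.65 in vehicle and 9.13, 9.14 and 9.10 with dexamethasone (−0.49 ± 0.06, adjusted p = 9.79e-05). Its arrays varied by less than 0.1 within each group. PRSS35, a serine protease gene, fell from 6.18, 6.46 and 6.37 to 5.86, 5.74 and 5.67 (−0.58 ± 0.11). These were the 3 falls that were also called when the 6 arrays were fitted alone.

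Of the 20 largest falls, 9 were called without any single array: beside those 3, DUSP5P1 (−0.61 ± 0.10), REG4 (−0.51 ± 0.09), ACTL9 (−0.50 ± 0.08), ST8SIA4, which adds polysialic acid (−0.47 ± 0.08), SELENBP1, a selenium-binding protein gene (−0.45 ± 0.07), and TCEANC2 (−0.45 ± 0.07). The number still called was 14 without dexamethasone A, 14 without B and 11 without C, and 12, 11 and 19 without vehicle A, B and C. Calls lost in at least 1 of these fits were those of ID3, OR7D4, BHLHA9, ZNRF2P1, CES5A, TRIM72, KRTAP7-1, FILIP1, DPY19L2P1, CLRN2 and RTBDN. In these 11 genes the adjusted p rose to between 0.0537 (CLRN2) and 0.152 (RTBDN). Vehicle B was the highest vehicle array in 13 of the 20.

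**Figure D3:**
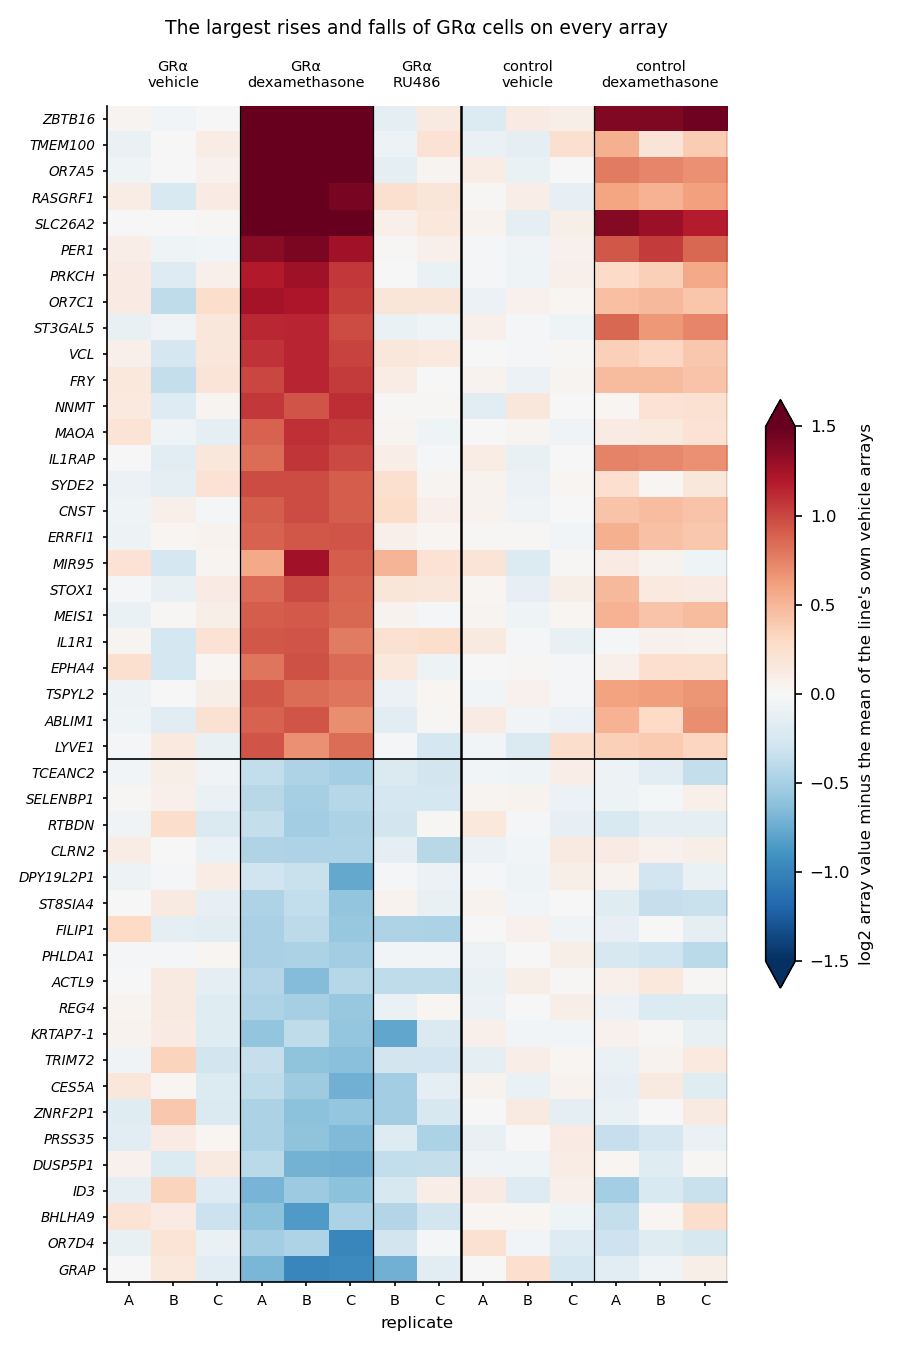
Each column is 1 array and each row 1 of the 25 largest rises or 20 largest falls of GRα cells; colour gives the log2 array value minus the mean of the line's own vehicle arrays, and values beyond 1.5 take the end colour. The rises stay red over all 3 GRα dexamethasone arrays, while the falls are paler and the GRα vehicle arrays vary among themselves.

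Steroidogenic genes were not called at 6 h. Of 22 measured enzymes and carriers none was called by limma, 5 had an unadjusted p under 0.05, and the list median was −0.01. Over all 18417 genes limma called 2.02%, and 2822 had an unadjusted p under 0.05. The largest difference was in HSD3B2. That gene, the adrenal 3β-hydroxysteroid dehydrogenase, read 5.77, 5.52 and 5.80 in vehicle and 5.29, 5.17 and 5.38 with dexamethasone (−0.42 ± 0.15, adjusted p = 0.193), without overlap. STAR, which carries cholesterol into mitochondria, differed by 0.17 ± 0.07, CYP17A1, the 17α-hydroxylase, by −0.08 ± 0.08 and SULT2A1, which sulfates DHEA, by −0.15 ± 0.09, and their arrays overlapped. CYP11A1, the side-chain cleavage enzyme, differed by 0.01 ± 0.08, the 11β-hydroxylase CYP11B1 by −0.02 ± 0.12, the aldosterone synthase CYP11B2 by 0.12 ± 0.11 and MC2R by −0.03 ± 0.14. Over fits without 1 array the signs of CYP11A1, CYP11B1 and MC2R changed. None of 18 cholesterol synthesis and uptake genes was called by limma either, and 1 had an unadjusted p under 0.05.

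Of 20 measured transcription factors of the adrenal cortex, 2 rose and 2 fell and 16 were not called, with a list median of −0.05. Over all genes 1.36% rose and 0.662% fell. NR5A1, steroidogenic factor 1, which drives most steroidogenic genes, rose from 8.25, 8.16 and 8.49 to 8.94, 9.03 and 8.92 (1.58-fold, log2 0.66 ± 0.08, adjusted p = 9.33e-05), and MEIS1 was the other rise. GATA6, a zinc finger factor of the cortex, fell from 7.87, 7.83 and 7.84 to 7.54, 7.41 and 7.61 (−0.33 ± 0.07), a call lost without dexamethasone B or vehicle A (adjusted p 0.0986 and 0.0544). The orphan receptor NR4A3 fell from 8.48, 8.17 and 8.41 to 8.12, 7.998 and 7.81 (−0.38 ± 0.09). Its call was kept without dexamethasone A or vehicle B and lost without any of the other 4 arrays (adjusted p 0.074 to 0.165).

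Catecholamine genes held 1 rise and 1 fall among 19 measured, with a median of −0.02. Over all genes 1.36% rose and 0.662% fell. MAOA rose as given above. PNMT, which makes adrenaline from noradrenaline and is known as a glucocorticoid-induced gene of chromaffin cells, read 5.87, 5.87 and 5.78 in vehicle and 5.35, 5.48 and 5.50 with dexamethasone (1.32-fold lower, log2 −0.40 ± 0.07, adjusted p = 0.0022). In GRα cells with RU486 it read 5.50 and 5.54, below every vehicle array.

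Of 20 clock genes, 2 rose and 2 fell, where 1.36% and 0.662% of all genes did, and the list median was 0.01. PER1 led, and CRY2, another repressor of the loop, rose from 6.86, 6.71 and 6.85 to 7.14, 7.30 and 7.07 (0.36 ± 0.07), a call lost without dexamethasone B (adjusted p = 0.063). The REV-ERB receptors, which repress the gene for BMAL1, fell: NR1D1 from 7.46, 7.14 and 7.17 to 6.92, 6.99 and 6.67 (−0.40 ± 0.09) and NR1D2 from 9.88, 9.88 and 9.87 to 9.62, 9.63 and 9.67 (−0.23 ± 0.06). NR1D1 lost its call without dexamethasone C or vehicle A (adjusted p 0.108 and 0.0849), and NR1D2 without any one of the 6 arrays (0.0575 to 0.136), although its arrays did not overlap. PER2 (0.27 ± 0.08) and CRY1 (0.25 ± 0.09) were not called. PER2 was called without dexamethasone C (0.36, adjusted p = 0.0208) and CRY1 without vehicle C (0.34, adjusted p = 0.0398).

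Of 31 feedback genes of receptor tyrosine kinase and MAP kinase signalling, 2 rose, 2 fell and 27 were not called, against 1.36% rises and 0.662% falls over all genes. ERRFI1, which inhibits the EGF receptor, rose from 7.86, 7.98 and 7.99 to 8.83, 8.88 and 8.89 (1.89-fold, log2 0.92 ± 0.06, adjusted p = 1.12e-07), and DUSP6, a phosphatase of ERK, from 6.21, 6.15 and 6.23 to 6.62, 6.80 and 6.91 (0.58 ± 0.08). GRAP and PHLDA1 fell. The list median was −0.05.

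Among 28 immediate-early genes, 1 rose (CSRNP1) and 2 fell (IER2 and NR4A3), and the list median of −0.14 lay below that of all genes. The shares of rises and falls over all genes were 1.36% and 0.662%. IER2 fell from 7.51, 7.61 and 7.25 to 7.03, 7.14 and 6.93 (−0.42 ± 0.09), a call lost without dexamethasone C or vehicle A or B (adjusted p 0.0541 to 0.0698). FOS (−0.20 ± 0.08), FOSL1 (−0.32 ± 0.11), NR4A1 (−0.04 ± 0.07) and NR4A2 (−0.32 ± 0.11) were not called. Without vehicle B the list median was −0.12.

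BMP and TGF-beta genes gave 2 rises and 4 falls among 34, with a median of −0.08. The shares over all genes were 1.36% and 0.662%. TMEM100 rose, as did TGFB3, a TGF-beta ligand, from 5.84, 5.91 and 5.82 to 6.32, 6.17 and 6.33 (0.42 ± 0.07). The ligand gene BMP4 fell from 8.57, 9.01 and 8.59 to 8.25, 8.37 and 8.32 (−0.41 ± 0.10), the receptor gene TGFBR1 from 10.22, 10.31 and 10.27 to 9.998, 9.98 and 9.98 (−0.28 ± 0.06) and SMAD1, which carries the BMP signal to the nucleus, from 7.89, 8.14 and 8.01 to 7.45, 7.63 and 7.67 (−0.43 ± 0.08). ID3, a BMP target that inhibits basic helix-loop-helix factors, fell from 7.997, 8.47 and 7.94 to 7.44, 7.59 and 7.52 (−0.62 ± 0.14). Of these falls SMAD1 was called without any single array, and TGFBR1 lost its call without dexamethasone B (adjusted p = 0.0527). ID3 and BMP4 lost theirs without dexamethasone A, B or C or vehicle B (0.0685 to 0.134 and 0.0787 to 0.119), vehicle B being the highest array of both. ID1 (−0.37 ± 0.15) and ID2 (−0.14 ± 0.07) were not called.

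Wnt genes gave 2 rises and 1 fall among 22, where 1.36% of all genes rose and 0.662% fell. LGR5, the R-spondin receptor that strengthens Wnt signalling, rose from 9.16, 8.92 and 9.17 to 9.84, 9.88 and 9.80 (1.69-fold, log2 0.75 ± 0.08, adjusted p = 1.58e-05). WNT5A, a ligand of the beta-catenin-independent branch, rose from 6.76, 6.37 and 6.72 to 7.02, 7.17 and 6.96 (0.43 ± 0.10), a call lost without dexamethasone A or B or vehicle B (adjusted p 0.0715 to 0.144). The Wnt antagonist DKK1 fell from 6.07, 6.05 and 6.20 to 5.74, 5.80 and 5.90 (−0.29 ± 0.07) and lost its call without dexamethasone A or B or vehicle A or C (0.0684 to 0.14). ROR2, a WNT5A receptor gene looked at after its value was seen, rose from 8.03, 7.96 and 8.16 to 8.51, 8.55 and 8.53 (0.48 ± 0.07).

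Of 25 genes of interleukin-1 and NF-kB control 4 rose, where 1.36% of all genes did, and none fell by limma. IL1R1, the signalling receptor, read 7.65, 7.35 and 7.83 in vehicle and 8.54, 8.55 and 8.39 with dexamethasone (1.84-fold, log2 0.88 ± 0.11, adjusted p = 0.000109). Its co-receptor IL1RAP read 5.59, 5.42 and 5.76 in vehicle and 6.43, 6.67 and 6.58 with dexamethasone (1.95-fold, 0.97 ± 0.09). NFKBIA, the cytoplasmic inhibitor of NF-kB, rose from 8.71, 8.74 and 8.61 to 9.14, 9.26 and 9.03 (0.46 ± 0.07), and TSC22D3 is the fourth member. The decoy receptor IL1R2 was not called (0.09 ± 0.07). Of 23 inflammatory genes that the hormone represses in other cells, 1 fell and none rose by limma. Over all genes 0.662% fell and 1.36% rose. VCAM1, an adhesion molecule gene, fell from 9.07, 9.37 and 9.06 to 8.80, 8.84 and 8.86 (−0.33 ± 0.07), a call lost without dexamethasone A, B or C or vehicle B (adjusted p 0.057 to 0.0878).

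The BCL2 family, which holds survival and death genes, gave 2 rises among 19 (1.36% over all genes) and no fall by limma. BCL2L1, which encodes the survival protein Bcl-xL, rose from 8.78, 8.49 and 8.78 to 9.25, 9.26 and 9.25 (0.57 ± 0.08), and BCL2L11, which encodes the death protein BIM, from 6.97, 6.86 and 7.01 to 7.29, 7.40 and 7.39 (0.41 ± 0.07). BCL2 (−0.03 ± 0.06) and MCL1 (−0.23 ± 0.07) were not called. Of 39 cell cycle and replication genes, 1 fell, where 0.662% of all genes did. MYB, a transcription factor of proliferating cells, read 8.34, 8.16 and 8.36 in vehicle and 7.92, 7.82 and 7.84 with dexamethasone (1.35-fold lower, log2 −0.43 ± 0.07, adjusted p = 0.00129).

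In lists of stress and growth pathways 1 of 22, 2 of 23 and 3 of 28 members rose, where 1.36% of all genes did. DDIT4 counts in both of the last lists. The list medians were 0.02 for endoplasmic reticulum stress, −0.04 for ATF4 targets and −0.003 for the insulin and FOXO axis. HERPUD1, part of endoplasmic reticulum-associated degradation, was the only one of 22 endoplasmic reticulum stress genes to be called, rising from 10.55, 10.73 and 10.53 to 11.16, 11.24 and 11.09 (0.56 ± 0.07). Of 23 ATF4 targets, DDIT4 and TRIB3, a pseudokinase that inhibits AKT, rose. TRIB3 went from 6.58, 6.66 and 6.39 to 6.84, 6.93 and 6.96 (0.36 ± 0.09) and kept its call only without vehicle B (adjusted p 0.0522 to 0.119 without another array). Of 28 genes of the insulin and FOXO axis, DDIT4, SESN3 and PIK3R1 rose. SESN3, a FOXO target, rose by 0.48 ± 0.09, lost without dexamethasone B (adjusted p = 0.0652), and PIK3R1, the regulatory subunit of phosphoinositide 3-kinase, by 0.32 ± 0.06.

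Among 24 genes of sphingolipid and ganglioside synthesis 3 rose and none fell by limma, with a list median of −0.01. Over all genes 1.36% rose and 0.662% fell, shares that apply to the other lists of this paragraph too. ST3GAL5 was joined by the sialyltransferase gene ST3GAL1, from 6.80, 6.77 and 6.93 to 7.52, 7.62 and 7.37 (0.67 ± 0.07), and by the lactosylceramide synthase gene B4GALT5 (0.26 ± 0.06). B4GALT5 lost its call without dexamethasone A, B or C or vehicle B (adjusted p 0.0905 to 0.137). UGCG, the first glucosylation step, differed by 0.07 ± 0.07. Of 17 genes of sulfate transport and sulfation, SLC26A2 rose and CHST11, which sulfates chondroitin, fell from 7.64, 7.83 and 7.52 to 7.18, 7.34 and 7.19 (−0.43 ± 0.08). Of 32 actin linkage genes VCL alone was called. TLN1, the vinculin partner talin 1, differed by 0.16 ± 0.10, and by −0.01 without vehicle B, and zyxin, ZYX, by 0.08 ± 0.07.

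Of 32 genes of corticotropin, angiotensin and potassium signalling only PRKCH was called, where 1.36% of all genes rose and 0.662% fell. None of 10 metallothionein genes was called by limma, and 0 had an unadjusted p under 0.05. MT1X differed by 0.16 ± 0.08, and without vehicle B it was called at 0.27 (adjusted p = 0.0234). Of 21 interferon response genes IFIT1 fell from 7.88, 7.88 and 7.78 to 7.62, 7.63 and 7.54 (−0.25 ± 0.06), a call kept only without vehicle C (adjusted p 0.0908 to 0.153 without another array). IFIT3 (−0.25 ± 0.07) and IFIT2 (−0.31 ± 0.11) were not called.

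**Figure D4:**
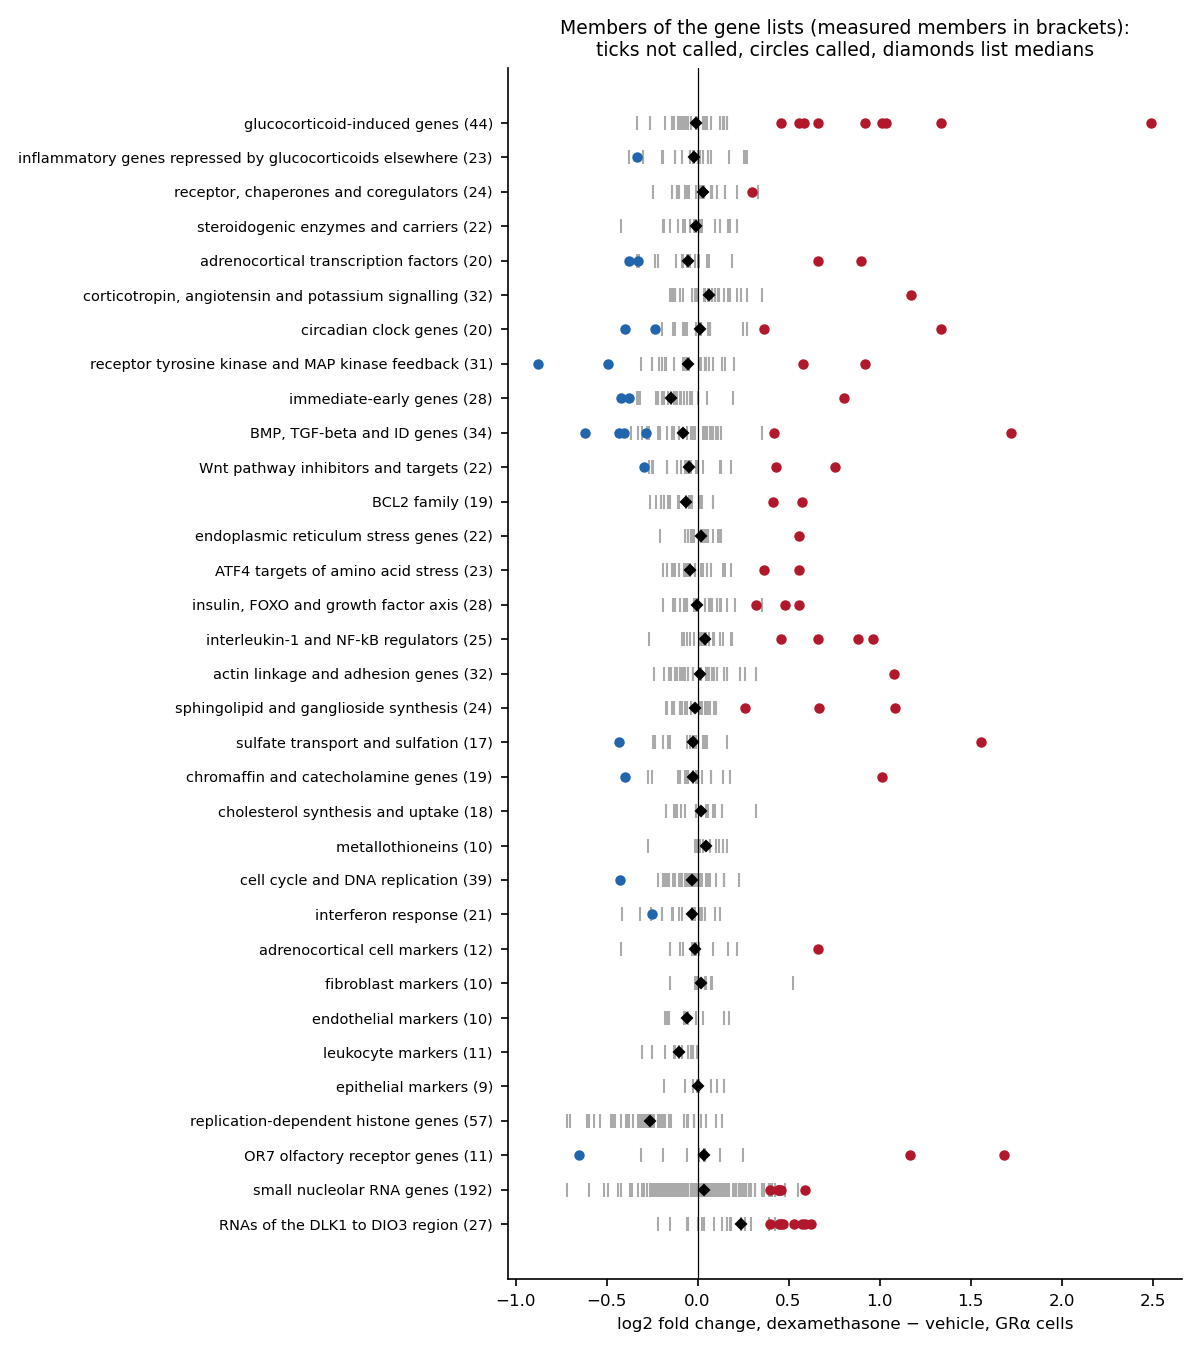
Log2 fold change in GRα cells of each measured member of 32 gene lists and of the DLK1 to DIO3 list. The DLK1 to DIO3 list was put together after the values were seen. Ticks are members that were not called, circles called members and diamonds list medians. In most lists the called members lie well away from a median near 0, and in the list of glucocorticoid-induced genes 9 of 44 members rose at a median of −0.01.

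Markers of other cell types gave no call by limma among 10 fibroblast, 10 endothelial, 11 leukocyte and 9 epithelial genes, of which 1, 1, 2 and 0 had an unadjusted p under 0.05. For all 18417 genes the share called was 2.02%, and 2822 had an unadjusted p under 0.05. All 11 leukocyte markers had negative values, from −0.003 for LYZ to −0.31 for CD14, and their summed log2 values were 57.3 to 58.2 over the vehicle arrays and 55.9 to 56.6 over the dexamethasone arrays. Their part in the falls was not tested. The samples come from a single cell line, and the leukocyte markers read 3.91 to 6.67 in vehicle, against a median of 6.85 over all genes. Whether such values stand above the array's background was not tested.

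Control cells, which have only their own receptor, were given the same treatment, and 48 genes were called there (0.261%). Of the 25 largest rises in GRα cells, all were positive in control cells and 11 were called there. Of the 20 largest falls, 16 were negative in control cells and 1, PHLDA1, was called. In control cells the median change of the 250 rises was 0.18 and that of the 122 falls −0.11, against −0.01 for all genes.

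PDCD4, a translation inhibitor gene, rose by 0.77 ± 0.07 in GRα and 0.75 ± 0.07 in control cells, a difference of 0.02 ± 0.10. DUSP6 rose by 0.58 ± 0.08 and 0.54 ± 0.08, and SHH, the hedgehog ligand gene, by 0.50 ± 0.07 and 0.47 ± 0.07. PDCD4 and SHH were named after their values were seen. PER1 rose by 1.34 ± 0.07 in GRα and 0.95 ± 0.07 in control cells, SLC26A2 by 1.56 ± 0.07 and 1.28 ± 0.07. The differences between lines for these 5 genes were not called. IL1R1 read 5.92, 5.75 and 5.67 in control vehicle and 5.77, 5.85 and 5.83 in control dexamethasone, a difference of 0.04 ± 0.11, whereas its partner IL1RAP rose by 0.72 ± 0.09 there (adjusted p = 0.00111). For IL1R1 the difference between lines, 0.85 ± 0.15, was not called (adjusted p = 0.0519).

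The effect of dexamethasone differed between the lines in 12 genes (0.0652%), all with the larger rise in GRα cells. TMEM100 rose by 1.72 in GRα and 0.37 in control cells, a difference of 1.35 ± 0.18 (adjusted p = 0.00538). For ZBTB16 the difference was 1.07 ± 0.12, for RASGRF1 1.03 ± 0.14, for OR7A5 0.95 ± 0.11, for NNMT 0.88 ± 0.13 and for MAOA 0.85 ± 0.12. These 6 were called without any single one of the 12 arrays. MAOA was higher in control vehicle (5.88, 5.91 and 5.82) than in GRα vehicle, and with dexamethasone the GRα arrays (5.97, 6.19 and 6.14) reached the level of the control arrays (5.99, 6.02 and 6.08). The other 6 were SYDE2, VCL, LGR5, GREB1L, CSRNP1 and JADE1. They held in 5, 4, 2, 2, 4 and 5 of the 12 fits without 1 array, with adjusted p-values up to 0.0765, 0.101, 0.183, 0.185, 0.124 and 0.107. Leaving out GRα dexamethasone A gave 7 such genes, and leaving out its replicate B gave 6. Among control arrays, 6 remained in number when vehicle A, vehicle C or either of dexamethasone B and C was left out.

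**Figure D5:**
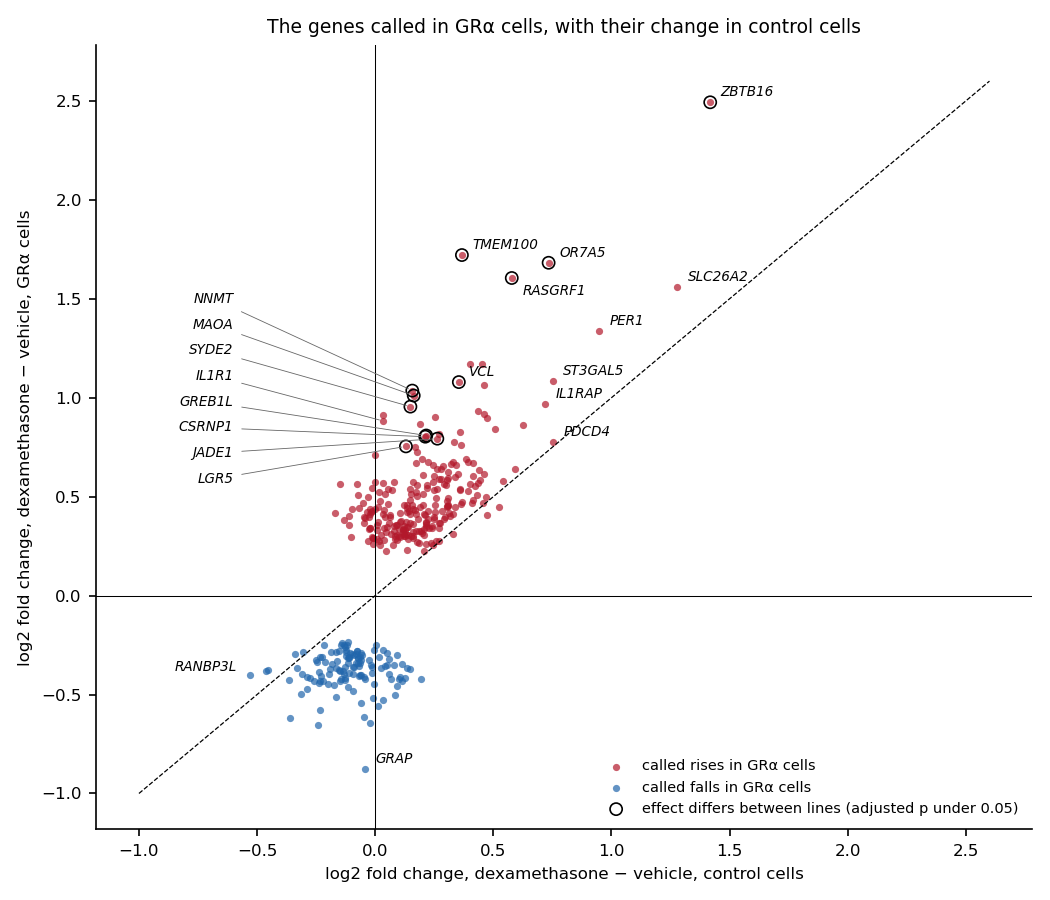
Log2 fold change of dexamethasone against vehicle in GRα cells (vertical) and control cells (horizontal) for the 250 rises (red) and 122 falls (blue) called in GRα cells; the dashed line marks equal change. Circled genes are the 12 whose effect differed between the lines, all above the line, with TMEM100 at 1.72 against 0.37 and SLC26A2 near the line at 1.56 against 1.28.

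RU486 in GRα cells shares the vehicle arrays with dexamethasone, so the values stand side by side without a measure of likeness. Limma called 0 genes for RU486, and 1572 had an unadjusted p under 0.05. ZBTB16 read 6.14 and 6.42 with RU486, PER1 6.80 and 6.86, SLC26A2 7.50 and 7.59, VCL 8.21 and 8.19 and PHLDA1 9.58 and 9.58, all within 0.2 of the vehicle mean. GRAP read 4.86 and 5.41 with RU486, where 5.42 was the lowest vehicle value. SNORD81, a small nucleolar RNA gene, read 7.77, 7.72 and 7.78 in vehicle, 8.18, 8.20 and 8.23 with dexamethasone (0.45 ± 0.08, adjusted p = 0.00358) and 8.09 and 8.42 with RU486. Both of its RU486 arrays lay above every vehicle array.

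Some features of the called genes were set beside those of all genes tested. Of the 250 rises 231 code for proteins, with a median gene length of 76.4 kb in the RefSeq table, against 34.1 kb for the 116 coding falls and 27.3 kb for the 16900 coding genes tested. MicroRNA genes made up 2.8% of the rises (7) and 0.939% of all genes, and small nucleolar RNA genes 2.4% (6) and 0.95%. The median vehicle level was 7.57 for rises, 7.46 for falls and 6.85 for all genes. That level is not independent of the calls, since the vehicle arrays are part of the contrast. Whether gene length or RNA class goes with the level was not tested.

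The promoters of the rises were searched for the receptor's palindrome. The motif was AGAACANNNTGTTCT on either strand with up to 2 mismatches in its 12 fixed letters, within the 250 bases before each gene start in RefSeq's GRCh38.p14. It was found in 1 of 187 rises with a listed promoter (0.535%), in 0 of 92 falls and in 111 of 14239 genes tested (0.78%). The shorter element AGAACA, or TGTTCT on the other strand, which the palindrome contains, lay in 13 of the 187 rises (6.95%), 10 of the 92 falls (10.9%) and 1293 of the 14239 genes (9.08%). Among the 9 listed promoters of the 13 rises larger than 1, 0 held either motif.

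The 1 match was in PTCHD4, a patched-domain gene that rose from 9.16, 8.91 and 9.11 to 9.48, 9.47 and 9.59 (0.45 ± 0.08, adjusted p = 0.00617). The stretch around it is shown because it is the only promoter match among the rises; capitals mark the 12 fixed letters, of which 2 differ from the motif. It lies at chr6:48111209-48111313 on the minus strand of GRCh38.p14, with the site starting 71 bases before the gene start.
PTCHD4: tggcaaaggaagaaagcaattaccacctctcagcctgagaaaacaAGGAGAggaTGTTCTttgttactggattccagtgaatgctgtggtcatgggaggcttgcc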

How the data were processed

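Biotinylated cDNA from total RNA was hybridised to Affymetrix arrays. The authors deposited log2 values for 29153 probe sets. RMA, which corrects background, normalizes arrays by quantiles and summarises probes, and limma are named by the submitters' processing notes, with versions and build not given in the sources used. A shift shared by most RNAs would not show after such normalization. The deposited values ran from 2.07 to 14.15, with array medians of 6.28 to 6.35, and 1 array column was empty and not used.

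Of the probe sets, 19460 had 1 gene symbol, 1754 had several and 7939 had none in the platform annotation. Those with 1 symbol were used, updated by Entrez number through a RefSeq table (19429 matched). For 769 genes with several probe sets the one with the highest mean was kept. Of 919 listed genes 864 were measured. FKBP5 and CYP21A2 share probe sets with other genes and were not analysed here.

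Limma 3.58.1 in R 4.3.3 fitted a mean for each group to the 17 arrays (residual degrees of freedom 11, prior 5.89), and the comparison is a contrast of it. P-values are two-sided and Benjamini-Hochberg adjusted over 18417 genes, and ± gives the standard error of a log2 change. The fit was tested on simulated data. Named genes are the 25 rises and 20 falls of greatest size that were called without array overlap, 18 receptor targets and steroidogenic genes, up to 4 called and 3 uncalled members per list, and genes whose effect differed between lines, and some uncalled members are left out for length. Another 25 genes and the list of DLK1 to DIO3 RNAs were chosen after their values were seen. The members, the 32 lists and the rules were chosen with earlier results of these data known.

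Replicate letters did not pair the samples: deviations of same-lettered arrays correlated at 0.105 (A), −0.0441 (B) and −0.0919 (C) over genes.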

Additional observations from a re-analysis of the deposited data

Results flagged for a closer look

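In each of 12 genes the effect of dexamethasone differed between GRα and control cells by limma's test of the difference (adjusted p under 0.05), with the larger rise in GRα cells. The log2 differences were 1.35 for TMEM100, 1.07 for ZBTB16, 1.03 for RASGRF1, 0.95 for OR7A5, 0.88 for NNMT, 0.85 for MAOA, 0.81 for SYDE2, 0.72 for VCL, 0.62 for LGR5, 0.59 for GREB1L, 0.59 for CSRNP1 and 0.53 for JADE1. GREB1L, a homologue of the hormone-regulated gene GREB1, read 5.30, 5.52 and 5.35 in GRα vehicle and 6.24, 6.29 and 6.07 with dexamethasone, and 4.96, 4.96 and 4.96 in control vehicle and 5.14, 5.21 and 5.18 with dexamethasone. Groups of 2 or 3 arrays are too small for Dixon's outlier test of single values, which was not run.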

How the results depend on the processing

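The 372 calls, 250 rises and 122 falls became 77, 74 and 3 when only the 6 arrays were fitted, 171, 138 and 33 at an adjusted p under 0.01 and 108, 96 and 12 with at least 0.5 log2. Array weights gave 80 falls. Leaving out 1 of the 6 arrays gave 200 to 601 calls, 145 to 377 rises and 55 to 224 falls. The 12 differences between lines became 5 with the compared arrays alone, 19 with a trend in eBayes, also with its robust option, 22 with array weights, 5 at an adjusted p under 0.01, and 6 to 15 without 1 array. With the replicate letter as a block, which the pairing check does not bear out, 311 genes were called (215 rises and 96 falls), with 8 differences between lines, and only letter A correlated best with itself. Median centring, renewed quantile normalization, other probe set rules and a filter on dim genes kept the counts within 1.5 times.

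Among the named genes that were not called, 12 fits turned the sign: TLN1 to −0.009 without vehicle B, DUSP1 to −0.022 without vehicle C, CYP11A1 to −0.026 without dexamethasone B, −0.036 without vehicle A and −0.042 without vehicle C, CYP11B1 to 0.015 with renewed quantile normalization and to 0.042, 0.034 and 0.043 without dexamethasone B, vehicle A and vehicle C, and MC2R to 0.082, 0.01 and 0.034 without the same arrays. Leaving out 1 array gave TLN1 −0.009 to 0.255, DUSP1 −0.022 to 0.125, CYP11A1 −0.042 to 0.097, CYP11B1 −0.131 to 0.043 and MC2R −0.134 to 0.082. For named genes that were called, 1550 alternative fits kept the call, 304 lost it and 0 turned the direction.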

Other observations

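Among the rises were RNAs of the imprinted DLK1 to DIO3 region, a cluster of microRNA and small nucleolar RNA genes that is known to be transcribed with MEG3 from the maternal chromosome. This list of 27 was put together after the values were seen. Of its members 8 rose, where 1.36% of all genes did, and none fell by limma, with a median of 0.24 in GRα cells and 0.23 in control cells, where none was called by limma. Over all genes the medians were −0.01 in both lines. MEG3 itself (0.26) and the coding gene DLK1 (0.04) were not called.

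SNORD114-26 rose from 6.22, 6.13 and 6.40 on vehicle arrays A, B and C to 6.96, 6.80 and 6.77 with dexamethasone (0.59 ± 0.10 SE, adjusted p = 0.0023), and SNORD114-2 from 8.06, 7.80 and 8.05 to 8.41, 8.42 and 8.44 (0.46 ± 0.08). MIR127 rose from 6.10, 5.87 and 6.20 to 6.51, 6.69 and 6.68 (0.57 ± 0.09). These 3 were called without any single array. Vehicle B was the lowest array in each of them. MIR487A (0.62 ± 0.12), MIR154 (0.53 ± 0.11), SNORD114-3 (0.45 ± 0.09), MIR410 (0.47 ± 0.11) and MIR377 (0.40 ± 0.09) lost their calls without at least 1 array, dexamethasone B in every case (adjusted p 0.0543, 0.0908, 0.0659, 0.127 and 0.159). Without vehicle B, 6 of the 27 were called.

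The mature microRNAs of MIR487A and MIR154 are shown because their 3p arms share a seed, with MIR127 and MIR410 beside them, as listed by RefSeq on the plus strand of GRCh38.p14. Bases 2 to 8 are in capitals. The array probes are in the precursor or host RNA, and the arms are not told apart.
miR-487a-3p, chr14:101052494-101052515: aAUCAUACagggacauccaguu
miR-154-3p, chr14:101059805-101059826: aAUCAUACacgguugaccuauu
miR-127-3p, chr14:100883035-100883056: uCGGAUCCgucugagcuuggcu
miR-410-3p, chr14:101065961-101065981: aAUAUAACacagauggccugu

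The fatty acid desaturase genes FADS1, FADS2 and FADS3, looked at after their values were seen, rose in GRα cells, while the stearoyl-CoA desaturase genes SCD (−0.006 ± 0.131) and SCD5 (−0.12 ± 0.06) were not called. FADS2 went from 8.72, 8.62 and 8.75 to 9.52, 9.50 and 9.26 (0.73 ± 0.11), FADS3 from 7.26, 7.20 and 7.26 to 7.88, 7.86 and 7.74 (0.58 ± 0.08) and FADS1 from 8.01, 7.99 and 8.25 to 8.59, 8.63 and 8.46 (0.48 ± 0.09). KIT, the stem cell factor receptor gene, rose from 6.81, 6.93 and 6.93 to 7.51, 7.60 and 7.60 (0.68 ± 0.06), and GREB1 from 5.64, 5.67 and 5.60 to 6.37, 6.52 and 6.27 (0.75 ± 0.09). VDR, the vitamin D receptor gene, rose by 0.54 ± 0.09, and ATP1B1, a sodium pump subunit gene, by 0.60 ± 0.07. All 7 were called without any single array.

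In control cells 9 of all 18417 genes were called as falls. Of the 122 falls in GRα cells 7 were also called as falls in control cells: PHLDA1, MYB and NR4A3, and 4 genes chosen after their values were seen. Those 4 were RANBP3L (−0.40 ± 0.08 in GRα and −0.53 ± 0.08 in control cells), KCNH5 (−0.37 ± 0.07 and −0.45 ± 0.07), DACT1 (−0.36 ± 0.06 and −0.33 ± 0.06) and SOX4 (−0.29 ± 0.06 and −0.30 ± 0.06). KCNH5 lost its call in GRα cells without dexamethasone C (adjusted p = 0.0543) and SOX4 without dexamethasone A or B or vehicle A (0.0684 to 0.0724).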
